A study of Mus musculus with 4 samples.

Results

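Sharp cleavage sites are those at which nearly all reads lay at 1 nucleotide. They were found by pooling the reads of both 3'READS libraries of the series, joining positions of the same strand that were no more than 24 nt apart, and keeping autosomal clusters with 100 or more reads of which 95% or more lay at the most used position, so they were chosen by their measured reads. This gave 1428 sharp clusters among 8398 autosomal clusters of that depth (17.0%, exact 95% interval 16.2 to 17.8), out of 164123 clusters of any size. The remaining 6970 clusters of 100 or more reads are called the other clusters below.

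The series maps poly(A) sites in mouse RNA. 3'READS captures RNA fragments that carry a poly(A) tail and sequences them to locate the nucleotide at which the transcript was cut. A purchased RNA mix made from 11 cell lines of the mouse was bound to CU5T45, an oligo of 5 U and 45 T that is washed stringently and releases RNA with RNase H, in 1 library, and to regular oligo(dT)10-25 beads in the other library. The series also holds 2 replicates of CLIP-seq of CstF64, in which RNA bound to the protein is crosslinked by UV light and sequenced, from proliferating cells of the mouse myoblast line C2C12, with no control library among the samples used.

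Most mRNAs are cut and polyadenylated by a large protein complex. Its CPSF part recognises the poly(A) signal upstream of the cut, and its CstF part binds U- and GU-rich RNA through the CstF64 subunit, mostly downstream of it. The cut is rarely restricted to 1 nucleotide, and many sites use several positions within a short stretch, which is known as microheterogeneity. Sequence around the sites and the genes they belong to were not analysed here, because the files are in the mm9 build and no genome or annotation of that build was used. Sites are therefore named by the chromosome, strand and position given in the files, which are exact to within 1 nt because the counting base is not stated.

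The CU5T45 library held 6738355 reads and the oligo(dT)10-25 library 3482826. The CLIP files held 1101047 and 1352122 distinct alignments. With 1 library per oligo there was no replicate error between the oligos, so no test of the oligo was possible. Intervals of ratios and of shares of reads cover counting error only. They are too narrow where PCR copies, reads of 1 site or neighbouring alignments are not independent. Intervals of shares of clusters treat each cluster as an independent draw. They hold no counting error of reads and no spread between libraries, so whether they overlap is no test of the classes. The CLIP replicates differed by less than sampling noise. Their counts within 100 nt of 2028 clusters with 10 or more alignments gave 0.231 as the chi-square for each degree of freedom, and 90.8% of the alignments under 50 nt in replicate 1 were also in replicate 2. They were counted as 1 sample, and their likeness is no measure of replication.

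The share of reads at the most used position was spread widely over the clusters of 100 or more reads, and its distribution rose toward 100%. The reads at each position chose the sharp clusters, so their top share, number of positions and span are given as a description. Their median top share was 98.0% (quartiles 96.5 and 99.2), against 67.7% (51.6 and 83.0) in the other clusters. Of the sharp clusters, 148 consisted of a single position, 277 had 99% or more of their reads at the top position and further positions beside it, and 1003 had between 95% and 99%. They held 999459 reads of CU5T45, 14.8% of that library, and 605988 reads of oligo(dT)10-25, or 17.4%.

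**Figure D1:**
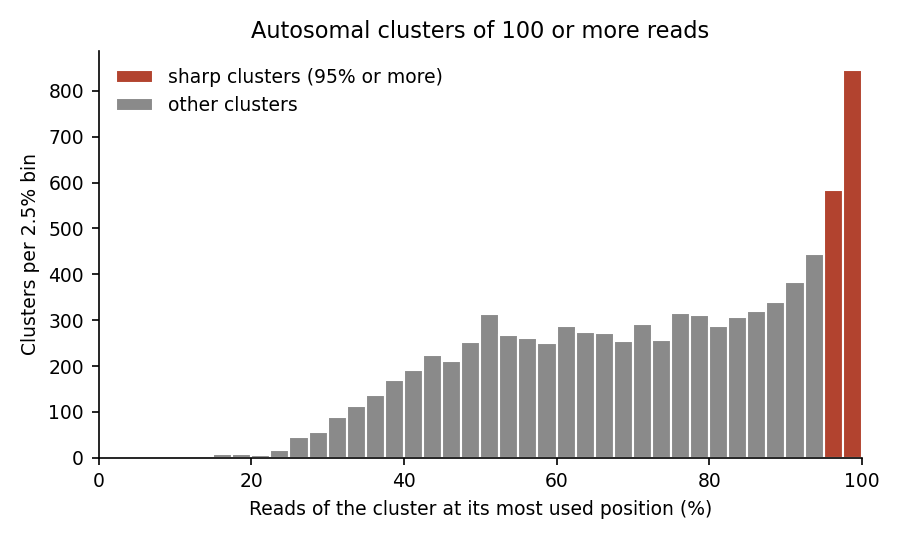
The number of autosomal clusters of 100 or more reads is plotted against the percent of their pooled reads at the most used position, in bins of 2.5%. The 1428 sharp clusters (red) fill the last bins from 95%, which are the 2 tallest, and the 6970 other clusters (grey) spread over the range below it.

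Minor positions were few and the span short at sharp clusters, which a rule that leaves few reads off the top position favours. A sharp cluster had a median of 4 positions over a span of 11 nt (quartiles 5 and 20), while other clusters weighted to the same numbers of reads had a median of 7 positions over 20 nt. The span still grew with depth: sharp clusters of 100 to under 200 reads spanned a median of 6 nt and those of 10000 or more reads 64 nt, against 16 nt and 64.5 nt for other clusters of those depths. The share of sharp clusters showed no order with depth. It lay between 14.3% and 18.9% in all 7 bins of reads, and the exact intervals of these bins overlapped.

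The threshold of 95% cut through a continuous range. Just inside it, chromosome 9 at 122807736, plus strand, had 437 of 460 reads at its top position. Chromosome 11 at 31001470, plus strand, had 133 of 140 reads there, and chromosome 7 at 38746385, minus strand, 114 of 120, so all 3 stood at 95%. Just outside it, chromosome 8 at 11513286, plus strand, had 873 of 919 reads at the top position. Chromosome 2 at 25304059, plus strand, had 928 of 977 reads there, and chromosome 12 at 65572316, minus strand, 812 of 855, so these stood between 94.97% and 94.99%. At 100 reads a share of 95% has an exact interval of 88.7% to 98.4%. The interval lay wholly above 95% at 838 sharp clusters, and it reached 95% at 474 of the other clusters.

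The sharp sites with most reads show how narrowly reads could be placed at very abundant sites. The largest, on the minus strand of chromosome 7 at 20274829, was covered by 63403 reads in CU5T45 and 51073 in oligo(dT)10-25. Its top position held 113551 of these 114476 reads, and the next most used of its 29 positions held 385. Chromosome 3 at 101380145, minus strand, had 47204 and 17581 reads, with 99.3% at the top position in CU5T45 and 99.4% in oligo(dT)10-25. Chromosome 6 at 138105275, plus strand, had 29853 and 24252 reads, with 99.3% and 99.7% at the top. In each of these 3 sites both libraries placed over 99% of their reads on the same nucleotide.

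A pair of other abundant sites was less narrow and still alike in both libraries. Chromosome 4 at 49549296, minus strand, was covered by 46332 reads in CU5T45 and 24415 in oligo(dT)10-25 over 48 positions, with 96.3% and 95.6% at the top position. Chromosome 9 at 46079493, plus strand, had 30167 and 10338 reads, with 96.4% and 97.7% at the top. The sixth, chromosome 3 at 14872538, plus strand, was covered by 8207 reads in CU5T45 and 32263 in oligo(dT)10-25. Its top position held 89.9% in CU5T45 and 98.8% in oligo(dT)10-25, so it passed the threshold through the library with more of its reads.

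Whether a sharp site stays sharp in a library that was not used to choose it can be measured, because the 2 libraries are separate captures of the same RNA mix. Of 1026 autosomal clusters that were sharp on at least 100 CU5T45 reads and had at least 30 oligo(dT)10-25 reads, 875 were also sharp in oligo(dT)10-25 at the same nucleotide (85.3%, interval 83.0 to 87.4). Of the 5183 clusters that were not sharp in CU5T45, 3.94% (3.42 to 4.50) were sharp in oligo(dT)10-25 at the same nucleotide. The most used nucleotide was identical in both libraries at all 1026 sharp clusters, and at 90.7% (89.9 to 91.5) of those not sharp.

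In the reverse direction the result was alike. Of 785 clusters sharp on at least 100 oligo(dT)10-25 reads with at least 30 CU5T45 reads, 655 were also sharp in CU5T45 at the same nucleotide (83.4%, 80.7 to 86.0), against 2.40% (1.90 to 2.99) of those not sharp. In CU5T45 the position chosen in oligo(dT)10-25 took up 97.7% of a sharp cluster at the median, against 68.3% of the others. At 1 of the 785 it held less than 50%. Both libraries come from the same RNA, so this measures the capture and sequencing and not the spread between cell cultures.

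**Figure D2:**
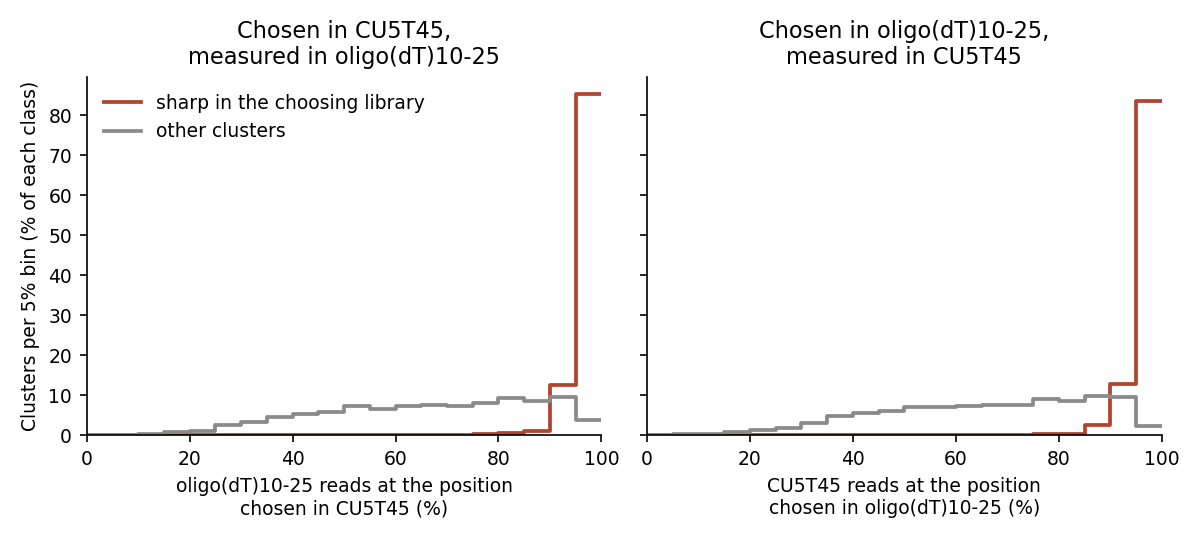
Each panel plots, in bins of 5%, how much of a cluster's reads in 1 library lay at the position that was most used in the other library, for clusters sharp in the choosing library (red) and for the others (grey). In both panels most sharp clusters fall in the last bin from 95% to 100%, and the others spread over lower shares.

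Reads off the top position were scattered on both sides of it. Of 33645 such reads at sharp clusters, 52.4% (51.9 to 52.9) lay upstream of the top position, and at the other clusters 48.2%. This interval treats reads as independent, though 1 minor position of the site on chromosome 4 at 49549296 alone held 1343 of them. The share upstream was 50.2% in the CU5T45 reads and 56.5% in the oligo(dT)10-25 reads of sharp clusters. When every minor position had equal weight, 49.3% (47.8 to 50.7) lay upstream, an interval that holds 50%. Counted by cluster, 39.5% of the 1280 sharp clusters with more than 1 position had more minor reads upstream and 55.9% more downstream, against 44.0% and 55.4% of the other clusters. The side that held more therefore depended on whether reads, positions or clusters were counted.

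The 2 nucleotides beside the top position held unequal shares, by the positions as deposited. How read ends were placed there was not tested. The distance of the minor reads differed little between the classes. Within 5 nt lay 13.9% at 1 nt and 57.4% at 2 to 5 nt in sharp clusters, against 9.12% and 59.8% in the others. The second most used position was a median of 4 nt from the first in both. Of the minor positions of sharp clusters, each counted once, 0.394% lay 1 nt upstream and 10.3% lay 1 nt downstream. In the other clusters these shares were 2.02% and 6.54%. Counted by reads the gap was smaller, with 4.18% of the minor reads of sharp clusters 1 nt upstream and 9.73% 1 nt downstream, against 3.38% and 5.74% in the others. In sharp clusters the upstream share by reads rests on few positions. Its 1407 reads lay at 0.394% of 4827 minor positions, and the 3273 reads 1 nt downstream at 10.3%.

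The comparison of the oligos asks whether both captured sharp sites to the same extent. The rule did not use the library a read came from. It is still not independent of the ratio, because pooled reads admit a site, and set its top share, mostly through the library with more of them. Among clusters chosen on pooled reads, sharp ones were 4-fold lower in CU5T45 more often than the others, while the shares that were 4-fold higher had overlapping intervals. The ratio of a site is its share of the CU5T45 reads over its share of the oligo(dT)10-25 reads, and a site was called when this ratio reached 4 in either direction and its exact interval excluded 1. Counts of 0 were set to a floor of 3 reads, which makes a ratio against them a bound.

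Of the 1428 sharp clusters, 90 were 4-fold lower in CU5T45 (6.30%, 5.10 to 7.69), where the background over all 8398 clusters was 3.0%. In the other clusters it was 2.32% (1.98 to 2.71), and weighting them to the reads of the sharp clusters left 2.32%. The sharp clusters made up 17.0% of all clusters tested and 35.7% (29.8 to 42.0) of those called 4-fold lower. In the other direction 22 sharp clusters were 4-fold higher in CU5T45 (1.54%, 0.968 to 2.32; background 1.14%), against 1.06% (0.835 to 1.33) of the other clusters, a difference within these intervals. Judged in CU5T45 reads alone, an alternative chosen after seeing the data that leaves out every site with under 100 of them, the 4-fold lower shares were 1.58% (0.926 to 2.52) in sharp and 0.882% in matched other clusters, with a background of 1.01%. Without weighting, the other clusters there had 0.893% (0.659 to 1.18), so the intervals overlapped. Judged in oligo(dT)10-25 reads alone they were 10.8% and 3.72% (background 5.16%). The pooled reads admit sites through either library, and the size of the difference depended on which library admitted them. No test of this difference can be made with 1 library per oligo.

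The pooled choice also held sites with very low ratios. Sharp clusters 16-fold or more lower in CU5T45 numbered 30 (2.10%, 1.42 to 2.99), against 16 of the other clusters (0.230%, 0.131 to 0.373) and a background of 0.548%. At 32-fold or more there were 20 sharp clusters (1.4%) and 5 others (0.0717%), with a background of 0.298%. These sites had passed the limit of 100 reads mostly through oligo(dT)10-25, so their counts are a description of the pooled choice. With 30 or more reads in each library, 0 clusters of either class were 32-fold lower. Judged in CU5T45 alone, 2 of 1073 sharp clusters (0.186%) and 10 of 5376 others (0.186%) were 8-fold lower. Both of these limits were chosen after seeing the data, and both leave out the sites lowest in CU5T45. The middle of the distribution moved less. The median ratio was 1.05 in sharp and 1.16 in other clusters, and the difference of the median log2 ratios, sharp minus matched other clusters, was -0.15. On the log2 scale the 5% quantile was -2.23 in sharp and -1.48 in other clusters, and the 95% quantile 1.35 and 1.30. In the pooled choice the classes thus differed most in the lower tail, as the plot of the ratio between the libraries shows.

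**Figure D3:**
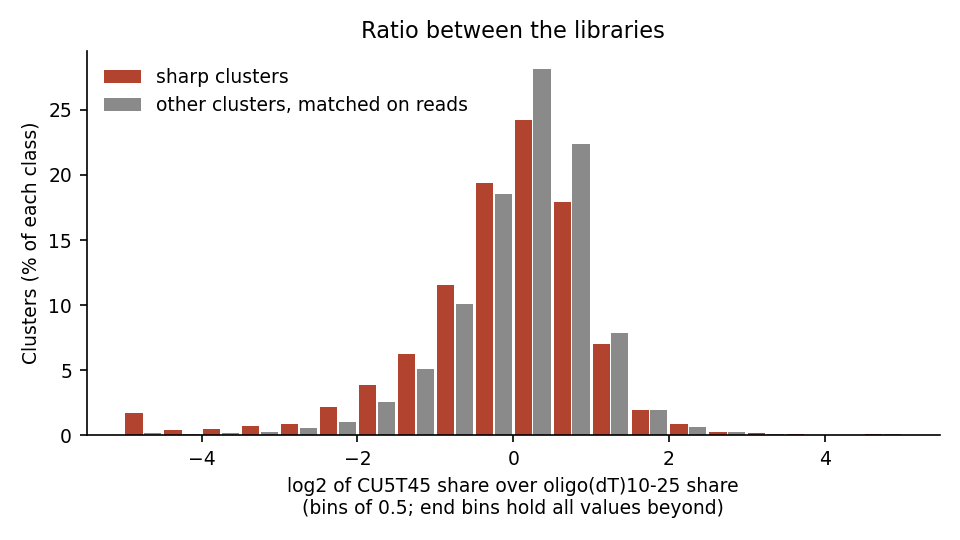
The log2 of the CU5T45 share over the oligo(dT)10-25 share is plotted in bins of 0.5 for sharp clusters (red) and for other clusters weighted to the same reads (grey), as a percent of each class, with all values beyond the axis in the end bins. The lowest bin holds 1.68% of the sharp and 0.143% of the matched other clusters, and the upper tails are of similar height.

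Within the sharp clusters of the pooled choice, the share that was 4-fold lower in CU5T45 was higher in sharper classes. The top share is the value that chose the sites, and where CU5T45 had few reads it was set by oligo(dT)10-25, so these shares are a description. The share was 3.49% (2.44 to 4.82) in clusters with 95% to 99% of reads at the top position, 9.39% (6.22 to 13.5) in those above 99% with further positions, and 19.6% (13.5 to 26.9) in those of a single position. Other clusters weighted to the reads of each class gave 2.30%, 2.20% and 2.66%. Below the threshold it lay between 1.96% and 3.02% in all 6 classes of top share. Single-position clusters had fewer reads, with a median of 165 against 323.5 in the sharp clusters of several positions. Without them 4.77% (3.66 to 6.08) of the sharp clusters were 4-fold lower. With 30 or more reads in each library the 3 classes had 3.01%, 6.56% (3.87 to 10.3) and 8.77% (4.29 to 15.5), where the background was 2.32%. With the classes set by CU5T45 reads alone they had 1.05% (0.454 to 2.06), 1.41% (0.291 to 4.06) and 6.12% (2.28 to 12.9), which rests on 8, 3 and 6 sites.

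**Figure D4:**
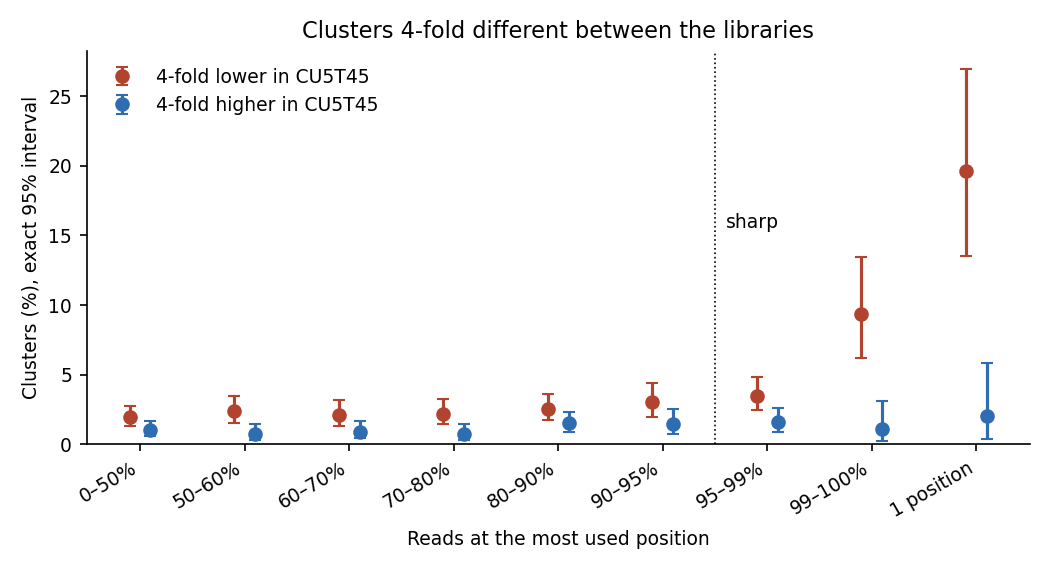
The percent of clusters called 4-fold lower (red) and 4-fold higher (blue) in CU5T45 is plotted for 9 classes of the share of reads at the most used position, with exact 95% intervals over clusters and a dotted line at the threshold of 95%. The red points stay near 2% to 3% below the threshold and reach 19.6% in clusters of 1 position, and the blue points stay at or below 2.03%.

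The 90 sharp sites that were 4-fold lower in CU5T45 lay on all 19 autosomes. Their CU5T45 reads ran from 0 to 8207 with a median of 37, and their oligo(dT)10-25 reads from 71 to 35002 with a median of 217. Of them, 29 were single positions and 80 had 100 or more oligo(dT)10-25 reads. Summed over the 90 sites, the top position held 94.0% in CU5T45 and 97.9% in oligo(dT)10-25, which describes the reads that chose them. The CU5T45 sum leaned on 1 site, chromosome 3 at 14872538, which gave 8207 of the 18112 reads and had 89.9% at its top position. At the 55 sites with 30 or more CU5T45 reads, the median share at the top was 97.9% in CU5T45 and 98.9% in oligo(dT)10-25. In CU5T45 it was 95% or more at 48 of these 55.

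The 5 lowest ratios among sites with reads in both libraries belonged to sites almost absent from CU5T45. Another 2 sharp sites had 0 CU5T45 reads, so their ratios are bounds set by the floor and cannot be ranked with these. On the minus strand of chromosome 11, position 48564209 was covered by 1 read in CU5T45 and 385 in oligo(dT)10-25, and position 75383716 had 1 and 271. Chromosome 4 at 97569699, plus strand, had 4 and 824 reads. Every read of these 3 sites lay on 1 nucleotide, with no other position within 24 nt in either library. Chromosome 10 at 32976942, plus strand, had 15 and 2103 reads, of which 5 lay at its second position. Chromosome 6 at 128490279, minus strand, was again a single position, with 1 and 133 reads. The ratio of the last was 0.00389 (9.77e-05 to 0.0220), and that of chromosome 10 was 0.00369 (0.00206 to 0.00609). None of the 5 sites had a CLIP alignment within 100 nt in either replicate.

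The 5 highest ratios were at sites with 1 to 265 oligo(dT)10-25 reads. Chromosome 1 at 137648808, plus strand, was covered by 1840 reads in CU5T45 and 1 in oligo(dT)10-25, and that read was not at the top position. Chromosome 2 at 73746503, minus strand, had 2293 and 40 reads over 20 positions, with 98.1% and 92.5% at the top. Chromosome 11 at 101139281, minus strand, had 488 and 17 reads, a ratio of 14.8 (9.17 to 25.7). All 3 sites had far more reads in CU5T45.

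The remaining pair of high ratios was smaller. On the minus strand of chromosome 11, position 50013656 had 5698 and 265 reads, a ratio of 11.1 (9.82 to 12.6), with 96.3% of the CU5T45 and 80.8% of the oligo(dT)10-25 reads at the top position. Chromosome 12 at 71568610, plus strand, had 345 and 18 reads, a ratio of 9.91 (6.17 to 16.9). Single-position clusters were 4-fold higher in 3 of 148 cases (2.03%, 0.420 to 5.81), against 19 of 1280 sharp clusters with several positions (1.48%, 0.896 to 2.31), so the intervals overlapped.

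Single-position sites with many reads in both libraries also existed. Chromosome 14 at 56205981, minus strand, was covered by 796 reads in CU5T45 and 532 in oligo(dT)10-25, all at 1 nucleotide. Chromosome 2 at 14895226, minus strand, had 1032 and 186 reads, a ratio of 2.87 (2.45 to 3.37). Chromosome 8 at 126476358, minus strand, had 687 and 271. At these 3 sites both libraries found the same single nucleotide from over 100 reads each. The other of the 4 single-position clusters with most reads, chromosome 4 at 97569699, plus strand, had only 4 reads in CU5T45 and 824 in oligo(dT)10-25.

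Sharp sites stood somewhat more often alone. No other cluster of 10 or more reads lay within 1000 nt on the same strand at 64.4% (61.9 to 66.9) of sharp clusters, against 58.8% (57.7 to 60.0) of the other clusters, and weighting those by reads left 58.8%. The median distance to the nearest such cluster was 3527.5 nt for sharp and 1994 nt for other clusters. Of the sharp sites 4-fold lower in CU5T45, 76.7% (66.6 to 84.9) had no neighbour within 1000 nt, against 63.6% of the remaining sharp sites. For the 162 other clusters that were 4-fold lower it was 56.2% (48.2 to 63.9). Of the 4-fold lower sharp sites, 29 were single positions, a class in which 73.6% had no neighbour within 1000 nt. Most had passed the limit of reads through the other library, with 80 having 100 or more reads there. These shares were not matched by reads and are a description of the pooled choice.

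Where a neighbour of 100 or more reads was present, the share of sharp neighbours differed by less than its intervals. Within 1000 nt the nearest such cluster was sharp for 25 of 170 sharp clusters (14.7%, 9.75 to 20.9) and for 144 of 1147 other clusters (12.6%, 10.7 to 14.6). Sharp clusters made up 17.0% of clusters on each strand. Across the autosomes they ran from 12.6% on chromosome 13 (8.88 to 17.2) to 21.5% on chromosome 3 (17.8 to 25.6). A cluster on the opposite strand within 100 nt was present at 3.43% (2.55 to 4.51) of sharp and 3.52% (3.10 to 3.97) of other clusters.

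The last comparison asks how CstF64 was crosslinked around sharp sites. CLIP was not used to choose them and comes from other cells than the 3'READS libraries, so sites whose RNA is absent from C2C12 cells cannot be told apart from sites without CstF64. The profiles of both classes had their peak in the same place. Alignment midpoints gathered on both sides of the site, and in both classes the densest stretch of 10 nt began 20 nt and ended 11 nt upstream. There the density over that of the flanks 200 to 400 nt away was 5.23 and 5.18 in replicates 1 and 2 at sharp clusters, and 5.53 and 5.54 at the matched others.

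From 40 nt upstream to the site the ratio to the flanks was 4.25 (4.01 to 4.51) and 4.29 (4.06 to 4.52) at sharp clusters, against 4.59 in both replicates at the matched others. This order turned round, to 5.14 in sharp and 4.98 in matched other clusters as the mean of both replicates, when only sites with no other cluster within 400 nt were kept. From the site to 40 nt downstream it was 3.54 (3.33 to 3.77) and 3.54 (3.34 to 3.74), against 3.54 and 3.47. As the mean of both replicates the downstream ratio was 4.45 (4.07 to 4.86) in sharp and 3.58 in matched other clusters at 500 or more reads, and 3.09 (2.73 to 3.48) and 3.55 at a threshold of 99%. On the opposite strand the upstream ratio was 0.833 (0.576 to 1.17) and 0.880 (0.643 to 1.18) at sharp clusters. Downstream on the opposite strand, over the flanks of that strand, it was 1.81 and 1.65, against 1.84 and 1.63 at the matched others. The order of the classes was thus stable on neither side of the site under the alternatives tried. The alignments have median lengths of 35 and 36 nt, which limits how finely it can be read.

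**Figure D5:**
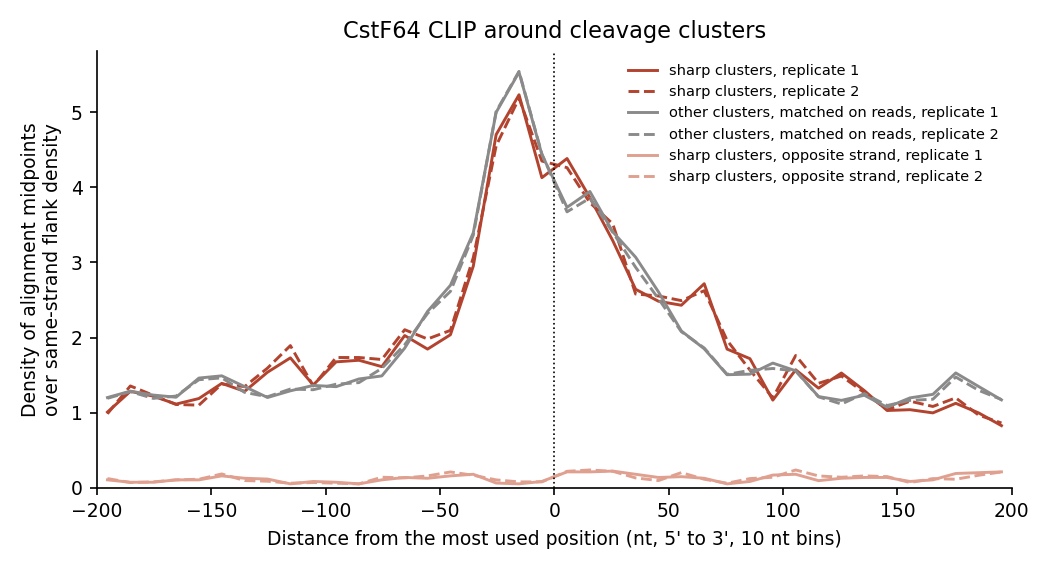
The density of CstF64 alignment midpoints, divided by the same-strand density 200 to 400 nt away, is plotted in 10 nt bins by distance from the most used position, for sharp clusters (red), other clusters weighted to the same reads (grey) and the opposite strand of sharp clusters (light red), with replicate 1 as solid and replicate 2 as dashed lines. Red and grey lines both peak between 20 and 11 nt upstream, and the opposite strand stays below 1 throughout.

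The red lines bulge 61 to 70 nt downstream, and this came from 1 site. In that bin the ratio was 2.72 and 2.62 at sharp clusters, against 1.85 and 1.86 at the matched others. Without the sharp site of most CLIP alignments it was 1.83 and 1.75. That site, on the minus strand of chromosome 13 at 48630891, was covered by 382 reads in CU5T45 and 107 in oligo(dT)10-25. It held 209 and 265 CLIP alignments within 100 nt, of which 189 and 235 were centred 41 to 100 nt downstream and 1 and 2 within 40 nt upstream.

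Other sharp sites with dense CLIP differed in where the alignments lay. Chromosome 13 at 51943843, plus strand, had 55 and 57 of its 75 and 81 alignments 41 to 100 nt downstream. Chromosome 12 at 73890463, plus strand, had 50 and 59 of its 68 and 80 within 40 nt upstream. Chromosome 4 at 116372119, plus strand, had 30 and 36 upstream and 20 and 26 downstream within 40 nt, of 59 and 71. Chromosome 18 at 78021607, plus strand, had 81 and 91, of which 48 and 46 were within 40 nt downstream. Dense CLIP was thus found upstream, downstream or on both sides of sharp sites.

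At least 1 CLIP alignment within 100 nt was present at 54.8% (52.2 to 57.4) of sharp clusters in replicate 1 and 55.6% (53.0 to 58.2) in replicate 2, where the background over all clusters was 57.5% and 58.6%. The matched others had 58.2% and 59.3%. On the opposite strand the shares were 6.37% and 7.77% at sharp clusters, against 7.80% and 8.58% at the others. Among clusters of 500 or more reads the order turned round, with 62.7% of sharp and 60.8% of matched other clusters as the mean of both replicates. With 30 or more reads in each library, a limit chosen after seeing the data, these means were 56.5% (53.8 to 59.2) and 58.9%. The share was lowest at the sharpest sites. It was 36.5% (28.7 to 44.8) and 37.2% (29.4 to 45.5) at single-position clusters, against 56.7% and 58.0% at others weighted to their reads. In clusters with 95% to 99% at the top position it was 57.8% and 59.0%, against 58.3% and 59.4%.

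CLIP was found less often at sharp sites that were low in CU5T45, a set that overlaps the single-position clusters above. Of these 90 sites, 29 were single positions, and 80 had 100 or more reads in the other library. Their shares were not matched by reads and are a description of the pooled choice. Whether a low ratio goes with less CLIP apart from this overlap was not tested. Of the 90 sharp clusters 4-fold lower in CU5T45, 35.6% (25.7 to 46.3) and 34.4% (24.7 to 45.2) had an alignment within 100 nt, against 56.0% and 56.9% of the 1316 sharp clusters that were not 4-fold different. For other clusters 4-fold lower it was 51.2% (43.3 to 59.2) and 51.9% (43.9 to 59.8), against 58.2% and 59.3% of those not 4-fold different. Of the 22 sharp clusters 4-fold higher it was 63.6% (40.7 to 82.8) in both replicates.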

How the data were processed

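Per the labels' protocols, RNA fragments were captured, ligated, amplified by 12 cycles of PCR with no molecular identifiers described and read over 72 nt. Per the submitters' processing notes, the build was mm9 and the tools included Bowtie and Novoalign, without roles. Read filters are not given in the sources used here. The deposited read counts are whole numbers with no stated normalization, per position in the 3'READS files and per distinct alignment in the CLIP files.

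Scripts ran under Python 3.11.15 with pandas 2.3.3 for tables, numpy 2.4.6 and scipy 1.17.1 for statistics, and matplotlib 3.10.9 for figures. The members, lists and alternatives were chosen with earlier results of these data known. Other clusters were weighted to the numbers of sharp clusters in 7 bins of pooled reads, starting at 100, 200, 500, 1000, 2000, 5000 and 10000. Shares have Clopper-Pearson 95% intervals, and ratios exact conditional binomial ones. A count of 0 allows 3 reads, which is 0.445 CPM in CU5T45 and 0.861 CPM in oligo(dT)10-25. CLIP alignments were counted once each by midpoint. There are no p-values, since neither oligo was replicated and both CLIP libraries were treated as 1 sample. The code was checked on simulated data with planted ratios and sharp clusters.

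Named sites are the 6 sharp clusters with most reads, the 5 sites at either end of the ratio, after the floor, whose interval leaves out 1, the 5 richest in CLIP by the replicate with fewer alignments, the 4 single-position clusters with most reads, and the 3 nearest the threshold on either side.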

Additional observations from a re-analysis of the deposited data

How the results depend on the processing

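The number of sharp clusters depended on the limits: 442 at 500 or more reads, 2679 at 30 or more, 425 at 99% and 2257 at 90% of reads at the top position. The share 4-fold lower in CU5T45 was higher in sharp than in matched other clusters in all 13 alternatives run for it. All of these but CU5T45 alone admitted sites through pooled or oligo(dT)10-25 reads, so they share 1 choice and are not separate support. On CU5T45 alone the intervals of sharp and other clusters overlapped. It was 9.63% at 30 or more reads, 5.10% at a 90% threshold and 12.9% at 99%, and 4.77% without single-position clusters. Of the alternatives chosen after seeing the data, it was 1.58% on CU5T45 alone, 10.8% on oligo(dT)10-25 alone and 4.22% with 30 or more reads in each library. The last 2 gave 4-fold higher shares of 0% and 0.768%, and 30 or more pooled reads gave 2.43%. The median log2 difference was -0.10 at 90%, -0.40 at 99% and -0.31 on oligo(dT)10-25 alone, negative in each setting run.

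Sharpness in the library not used was 89.5% with 100 or more reads measured. Minor reads upstream were 49.3% with each position counted once. Without a neighbour of 3 or more reads were 48.4%.

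For CLIP upstream and downstream of the site, the ratios to the flanks were 3.74 and 3.12 at 30 or more reads, 5.29 and 4.45 at 500 or more, and 4.60 and 3.09 at 99%. Downstream it was 3.77 at 90%. By the 3′ end of alignments they were 3.14 and 4.41, and downstream 2.82 by the 5′ end, so the order of the sides depends on the end used. Windows of 100 nt gave 2.82 and 2.65, flanks of 400 to 1000 nt 6.68 and 5.54, and isolated sites 5.14 and 4.19. Without clusters of over 100 alignments within 400 nt, chosen after seeing the data, upstream was 4.65. Downstream, the matched others had 3.58 at 500 or more reads, 3.43 at 90% and 3.55 at 99%. On both sides sharp clusters were above the matched others in some of these and below in others, so no direction is given. Leaving out either CLIP replicate gave 4.25 to 4.29 upstream, 3.54 to 3.54 downstream, and 54.8% to 55.6% with an alignment. The share with an alignment was 47.6% at 99%, 47.9% at 30 or more reads, 62.7% at 500 or more, where matched others had 60.8%, and 23.9% for 5 or more alignments.

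Of 120 ratios recomputed at the 30 named sites, 0 with an interval excluding 1 changed direction, and 9 moved outside their interval. No paired analysis was possible because each oligo had 1 library and only the CLIP group has 2 replicate numbers. Depth limits the ratios at sites with few reads in 1 library.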

Other observations

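Sharp clusters by the same rule outside the autosomes numbered 42 of 208 on chromosome X (20.2%, exact interval 15.0 to 26.3), 0 of 2 on chromosome Y, and 1 of 34 on the mitochondrial genome (2.94%, 0.0744 to 15.3). On unplaced sequence there were 2 of 10.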
